A study of Bos taurus with 14 samples.

Results

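The miRNAs described here are 6 bovine names known from liver and gut: bta-miR-122, bta-miR-192, bta-miR-215, bta-miR-194, bta-miR-194b and bta-miR-193b. They were taken by name from the library files, in which 932 names were listed, 723 of them bovine. bta-miR-122, bta-miR-192, bta-miR-193b and bta-miR-215 were matched as whole names and bta-miR-194 as the start of a name, which found 8 names in all. Of the further 2, bta-miR-194b-3p held the same reads as bta-miR-194b in every library, and bta-miR-1949 shares only the first digits of its number and had 79 reads in 6 libraries. Reads of 5 members were present in all 14 libraries, and bta-miR-194b had reads in 9.

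The samples were plasma and leucocytes of non-lactating, ruminally cannulated Holstein cows fed first on forage (FD, 0% concentrate) and later on a high-grain diet (HG, 65% concentrate), a feeding model of subacute ruminal acidosis. Plasma was sequenced from 4 cows and leucocytes from cows 1, 3 and 4, each on both diets, which gave 8 plasma and 6 leucocyte libraries. The HG samples came from week 1 of that diet, and since every cow received the diets in the same order, diet and time cannot be told apart. The leucocytes were the buffy coat of centrifuged blood without further sorting, the plasma was centrifuged again to remove cells, and RNA was extracted with a different kit for each sample type, so sample type and kit cannot be told apart. The cows had no added allele or transgene, and their age is given in the study's methods but not in the labels.

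A mature miRNA guides the Argonaute complex to messenger RNAs that pair with its seed, the bases near its 5′ end, and lowers their translation or stability. Mature miRNAs also leave cells in vesicles, in lipoproteins or bound to proteins, so plasma holds miRNAs of tissues that are not blood. miR-122 is the dominant miRNA of hepatocytes. miR-192, miR-215 and miR-194 are abundant in liver, kidney and intestinal epithelium, and miR-192 and miR-215 share a seed. miR-193b is expressed in liver, fat and muscle.

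Plasma libraries held between 376589 and 4464702 reads assigned to miRNAs, and leucocyte libraries between 21764578 and 66070770. A count of 0 allowed up to 3 counts, which corresponds to 0.944 to 10.3 CPM (counts per 1000000 counts) in plasma and 0.0528 to 0.164 CPM in leucocytes. This limit covers counting error only, since the reads carry no molecular identifiers. The smallest listed count was 2 reads in every library, so a name with fewer reads may be missing, which the limit does not cover. CPM was computed here from estimated counts, in which a read is divided among the names it maps to, relative to the estimated counts of the whole library. All 7 leucocyte markers had reads in every library, and they made up 2.42 to 3.69% of the estimated counts in leucocytes and 1.89 to 3.54% in plasma. The 8 erythrocyte markers made up 24.3 to 41.1% in leucocytes and 5.77 to 14.9% in plasma, so both sample types held red cell miRNAs, and the part of these in the results was not tested.

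In the library files, on the bovine build UMD3.1, bta-miR-122 lies at chr24:58095656-58095677 on the plus strand. bta-miR-192 lies at chr29:43731679-43731701 and bta-miR-194, from the hairpin bta-mir-194-2, at chr29:43731474-43731495, both on the plus strand and with 183 bases between them. bta-miR-215 lies at chr16:24305748-24305769 on the minus strand, and bta-miR-194b at chr16:24306081-24306100 on the plus strand, with 311 bases between them. bta-miR-193b lies at chr25:13339533-13339556 on the plus strand. The entry of bta-miR-194 is marked as a duplicate, and so is that of bta-miR-194b in some libraries. Whether the reads of bta-miR-194 come from the chromosome 29 locus alone was not tested. The mature forms span 20 to 24 bases, so their levels are set side by side here without a correction for length.

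Not every read belonged to 1 name. All reads of bta-miR-122 and bta-miR-193b were counted there alone. For bta-miR-192, 85.0 to 98.0% of its reads were left to it in plasma and 99.3 to 99.7% in leucocytes after reads were divided among names. bta-miR-215 kept 45.8 to 49.7% of its reads in plasma, where its human homologue hsa-miR-215-5p held the same reads as a separate entry and some reads also mapped to bta-miR-192. A split of those reads among the 3 names gave the deposited estimate of bta-miR-215 to within 1 count in 14 of 14 libraries. The shared reads so computed numbered 25 to 6811 in plasma, 3.01 to 22.5% of the reads of bta-miR-192 and 1.55 to 25.2% of those of bta-miR-215, and 91 to 348 in leucocytes. bta-miR-194 kept 38.4 to 52.1% in plasma and 58.6 to 61.7% in leucocytes, and it shares reads with hsa-miR-194-5p. That human entry kept 33.4 to 34.3% of its reads in plasma and 33.5 to 33.7% in leucocytes. Its reads were thus divided among more than this pair of names, and the further entry was not identified. bta-miR-194b kept 33.3 to 50% of its reads in the plasma libraries that held any, and 39.8 to 45.4% in leucocytes. The CPM of bta-miR-215, bta-miR-194 and bta-miR-194b are lowered by these shares beside that of bta-miR-122, whose reads were all its own.

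By mean CPM the levels fell in the same order in both groups of plasma. bta-miR-122 stood first, followed by bta-miR-192, bta-miR-215, bta-miR-194, bta-miR-193b and bta-miR-194b. Neighbours in this order overlapped in their ranges over the 8 plasma libraries except for bta-miR-215 and bta-miR-194, whose ranges were 1499 to 8180 and 399 to 1049 CPM. Within each library, however, bta-miR-122 had more reads than bta-miR-192 in 8 of 8 plasma libraries. The places of bta-miR-192 and bta-miR-215 on HG rest on the division of reads. As undivided reads relative to all reads assigned to miRNAs (RPM, scaled like CPM), bta-miR-215 averaged 6849 on HG and bta-miR-192 6657. On FD bta-miR-215 averaged 7781 RPM and bta-miR-192 8315. bta-miR-215 had more undivided reads than bta-miR-192 in FD cow 1 and HG cows 1 and 4, and fewer in the other plasma libraries. In leucocytes the order was different: bta-miR-192 and bta-miR-194 came first with means of 702 and 477 CPM over 6 libraries and ranges that did not overlap, and bta-miR-122, bta-miR-193b and bta-miR-215 followed with means of 40.8, 15.8 and 15.7 CPM and overlapping ranges. This order rests on the division of reads: on undivided reads bta-miR-194 exceeded bta-miR-192 in 4 of 6 leucocyte libraries, and bta-miR-215 exceeded bta-miR-193b in 6 of 6. bta-miR-194b was last, at 1.96 to 3.09 CPM.

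**Figure D1:**
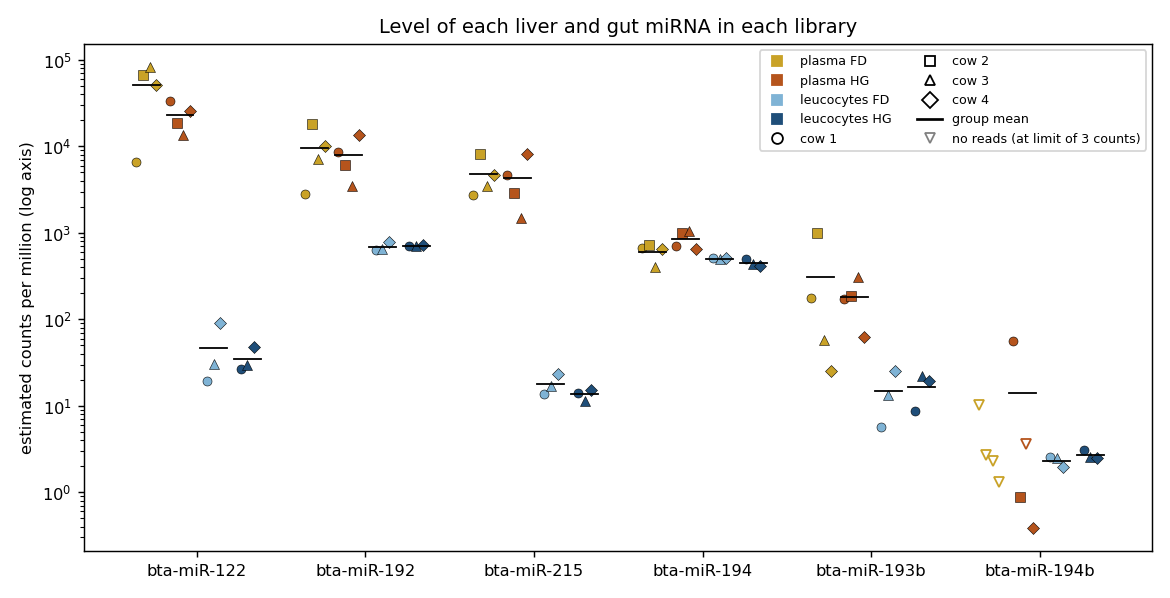
CPM of estimated counts on a log axis for each of the 6 miRNAs in each library, by sample type and diet, with 1 symbol per cow and a line at the mean of each group. Open triangles mark libraries without reads, drawn at the limit that 3 counts set. bta-miR-122 and bta-miR-215 in plasma lie far above all leucocyte libraries, with lowest plasma values 74.1 and 64.5 times the highest leucocyte value. bta-miR-194 differs far less between the sample types, which overlap on FD but not on HG.

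bta-miR-122, the hepatocyte miRNA, was between the 3rd and the 40th most frequent bovine name by reads in plasma, and between the 140th and the 185th in leucocytes. On FD its plasma level was 6662 CPM in cow 1, 67018 in cow 2, 82794.5 in cow 3 and 51475 in cow 4. On HG it was 33372, 18783, 13441 and 25769 CPM in the same cows. The FD library of cow 1 stood lowest of all 8, with 1947 reads from 23 distinct sequences, where the other plasma libraries had 11242 to 117404 reads from 55 to 186 sequences. In leucocytes the level was 19.4, 30.8 and 89.9 CPM in cows 1, 3 and 4 on FD and 26.8, 29.6 and 48.3 CPM on HG. Leucocyte reads of bta-miR-122 spanned only 1.66-fold, from 991 to 1648, while the depth of these libraries spanned 3.04-fold, and the highest CPM was that of the library with the fewest reads, FD cow 4. In the edgeR fit bta-miR-122 was higher in plasma by 9.79 on the log2 scale on FD (SE 1.17, adjusted p = 0.000183) and by 8.30 on HG (SE 1.09, adjusted p = 0.000233). Among the 800 names tested, its log2 difference was the 2nd largest on FD and the 3rd largest on HG.

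bta-miR-192 reached 2787, 18033, 7232 and 10068 CPM in plasma of cows 1 to 4 on FD and 8577, 6052, 3530 and 13470 CPM on HG. The lowest plasma library was 3.55 times the highest leucocyte library. Leucocyte levels lay close together, at 636, 656 and 786 CPM on FD and 707, 705 and 726 CPM on HG in cows 1, 3 and 4. bta-miR-192 was thus a regular miRNA of the leucocyte libraries, at rank 77 to 82 of the bovine names by reads, as well as of plasma, at rank 15 to 65. It was higher in plasma by 2.90 on FD (SE 0.717, edgeR adjusted p = 0.0117) and by 2.10 on HG (SE 0.666, adjusted p = 0.0304). With fewer cows the call was lost in several fits. On FD the difference was 2.97 without cow 3 (edgeR adjusted p = 0.0543) and 2.65 without cow 4 (adjusted p = 0.0850), about as large as with all cows. On HG it was 1.53 without cow 1 (edgeR adjusted p = 0.136), 2.41 without cow 3 (adjusted p = 0.0564) and 1.61 without cow 4 (adjusted p = 0.209).

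bta-miR-215, the seed relative of bta-miR-192, was at 2740, 8119, 3487 and 4657 CPM in plasma of cows 1 to 4 on FD and at 4718, 2880, 1499 and 8180 CPM on HG. In leucocytes it was at 13.6, 16.99 and 23.2 CPM on FD and at 13.9, 11.5 and 15.2 CPM on HG in cows 1, 3 and 4. It therefore matched bta-miR-192 in plasma to within a few-fold but was scarce in leucocytes, where bta-miR-192 was not. The difference between plasma and leucocytes was 7.28 on FD (SE 0.804, edgeR adjusted p = 0.00012) and 6.95 on HG (SE 0.784, adjusted p = 9.26e-05), on the log2 scale.

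bta-miR-194 was at 665, 721, 399 and 646 CPM in plasma of cows 1 to 4 on FD and at 700, 984, 1049 and 654 CPM on HG. In leucocytes it was at 505, 500 and 510 CPM on FD and at 496, 432 and 419 CPM on HG in cows 1, 3 and 4. It was thereby the member with the smallest ratio of highest to lowest CPM, 2.63 in plasma and 1.22 in leucocytes, where bta-miR-192 was close at 1.24. Plasma exceeded leucocytes by only 1.37-fold in the median CPM of bta-miR-194. After TMM scaling the difference was -0.49 on FD (SE 0.349, edgeR adjusted p = 0.308) and -0.46 on HG (SE 0.341, adjusted p = 0.327), neither passing the test. The sign depends on the scaling, since with library size alone the difference was 0.18 on FD and 0.83 on HG. The human entry hsa-miR-194-5p, which shares reads with bta-miR-194, was higher in plasma by 0.43 on FD (SE 0.401, edgeR adjusted p = 0.441). On HG it was higher by 0.51 (SE 0.390, edgeR adjusted p = 0.339). Neither passed the test, but the CPM of this entry did not overlap between plasma and leucocytes on either diet. The CPM of bta-miR-194 itself overlapped on FD. On HG it did not, at 654 to 1049 in plasma and 419 to 496 in leucocytes, and 29.0% of all names lay higher in plasma without overlap there. On undivided reads bta-miR-194 differed by only -0.07 on FD (edgeR adjusted p = 0.878). Several settings called it lower in plasma on FD: the DESeq2 Wald test gave an adjusted p of 0.0293, a filter of 10 counts in every library gave 0.0282 in edgeR, and the fit without the plasma FD library of cow 1 gave 0.0458, while on HG that last fit gave 0.0484.

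bta-miR-194b, the low-abundance relative from chromosome 16, had 353, 2, 0 and 3 reads in HG plasma of cows 1 to 4 and no read in FD plasma. In leucocytes it had 79 to 354 reads, which is 1.96 to 3.09 CPM. The HG plasma level of cow 1 was 55.5 CPM from 4 distinct sequences, above all leucocyte libraries, and the other plasma libraries were at or under 0.878 CPM. In the FD plasma of cow 1 and cow 2 the limit of a count of 0, at 10.3 and 2.68 CPM, was above the highest leucocyte level on FD, 2.57 CPM. The division of reads lowers that leucocyte level but not the limit. On undivided reads the 95% upper bound of a count of 0 was 10.2 RPM in cow 1 and 2.69 RPM in cow 2. Leucocytes on FD were at 3.63 to 5.36 RPM, so a lower level was not detectable at the depth of cow 1 but was at that of cow 2. In the edgeR fit plasma and leucocytes did not differ past the threshold on FD (adjusted p = 0.0983) or HG (adjusted p = 0.943). On FD it did with the DESeq2 Wald test (adjusted p = 0.0292) and without cow 1 (edgeR adjusted p = 0.0295).

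bta-miR-193b was at 175, 991, 57.3 and 25.0 CPM in plasma of cows 1 to 4 on FD and at 172, 185, 312 and 62.4 CPM on HG. In leucocytes it was at 5.74, 13.4 and 25.5 CPM on FD and at 8.80, 22.1 and 19.1 CPM on HG in cows 1, 3 and 4. The highest plasma value, 1110 reads in FD cow 2, came from 9 distinct sequences. Plasma and leucocytes overlapped on FD and did not overlap on HG. The log2 difference was 2.10 on FD (SE 1.05, edgeR adjusted p = 0.143) and 1.78 on HG (SE 0.923, adjusted p = 0.155). With 1 cow left out it ranged from 0.63 without cow 1 to 3.41 without cow 4 on FD, and from 0.64 without cow 1 to 2.31 without cow 4 on HG. The other arm of its hairpin, listed as hsa-miR-193b-5p, had 111 and 200 reads in FD plasma of cows 3 and 4, 182 in HG plasma of cow 4 and none in the other 5 plasma libraries, from at most 2 distinct sequences.

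Across the members, then, 3 of 6 were called higher in plasma on FD and the same 3, bta-miR-122, bta-miR-192 and bta-miR-215, on HG, with none called lower. Over all 800 names tested, 14.6% were called higher on FD and 15.9% on HG, while 18.4% and 18.8% were called lower. This split depended on the scaling: 117 higher and 147 lower on FD became 150 and 94 with library size alone and 85 and 182 with DESeq2 size factors, and 127 higher and 150 lower on HG became 196 and 63 with library size alone. In plain CPM, without any fit, 3 of 6 members lay above leucocytes without overlap on FD and 5 of 6 on HG, against 18.4% and 29.0% of all names. The median difference of all names was -1.63 on FD and -0.84 on HG under TMM scaling, -1.03 and 0.28 with library size alone, and -1.93 and -1.14 with DESeq2 size factors. bta-miR-194 lay above that median under each of these 3 scalings on both diets, although its own sign changed with library size alone. The FD and HG comparisons share cows, and they come from 1 fit.

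**Figure D2:**
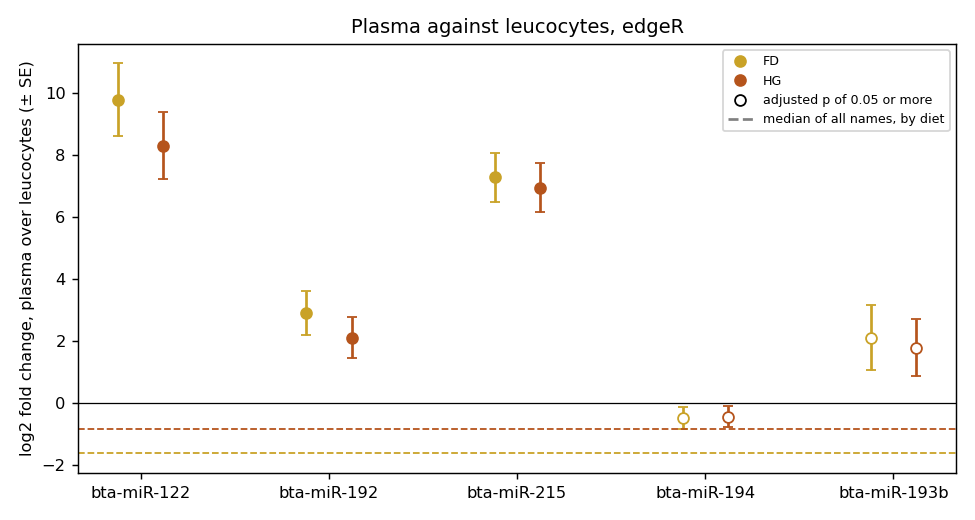
Log2 fold change of plasma over leucocytes from edgeR for 5 miRNAs on FD and HG, with bars of 1 SE, filled points for an adjusted p under 0.05 and dashed lines at the median of all 800 names. bta-miR-122, bta-miR-192 and bta-miR-215 are filled and above 2 on both diets, whereas bta-miR-194 is open and near 0. bta-miR-194b is left out because FD plasma held no reads of it.

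Ratios between members within a library do not depend on the scaling between libraries. They were taken on undivided reads, in which a read counts in full at each name, and were chosen after the values were seen. The ratio of bta-miR-122 to bta-miR-192 was 1.69 to 9.73 in plasma and 0.0303 to 0.114 in leucocytes. The ratio of bta-miR-215 to bta-miR-192 was 0.811 to 1.94 in plasma and 0.034 to 0.0616 in leucocytes, so the seed relatives had similar read numbers in plasma and far from similar ones in leucocytes. Reads that map to both count in both terms here, and without them the ratio was 0.774 to 1.97 in plasma and 0.0297 to 0.0537 in leucocytes. For the neighbours on chromosome 29, the ratio of bta-miR-192 to bta-miR-194 was 2.23 to 11.2 in FD plasma, 1.77 to 9.49 in HG plasma and 0.771 to 1.02 in leucocytes. In none of these 3 ratios did plasma and leucocytes overlap, on either diet. No test is given for them, because they were chosen for these values.

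**Figure D3:**
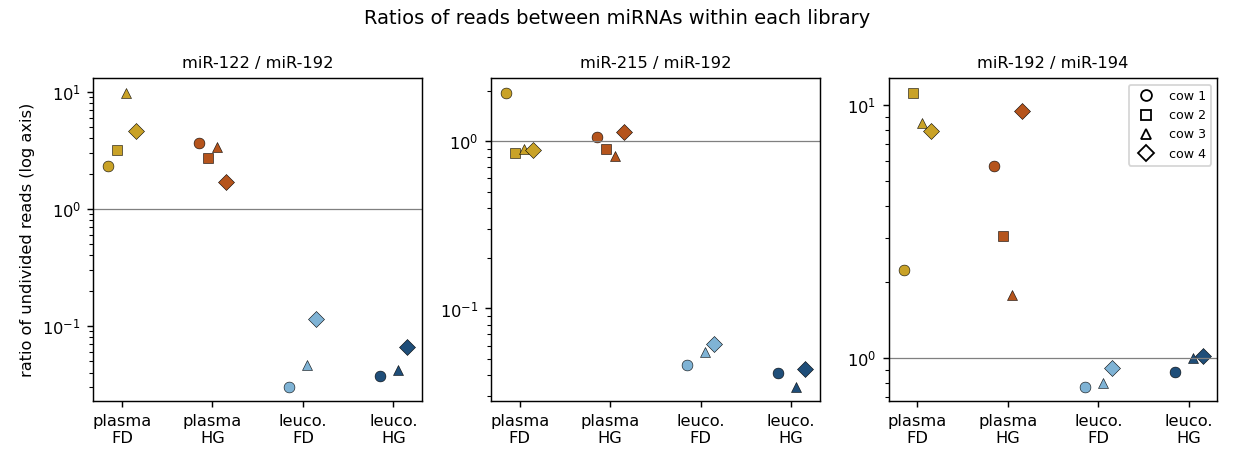
Ratios of undivided reads within each library on log axes, by sample type and diet, with 1 symbol per cow and a grey line at 1. All 8 plasma libraries lie above all 6 leucocyte libraries in each ratio, and bta-miR-215 and bta-miR-192 are near 1 in plasma, at 0.811 to 1.94.

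The diet comparison within plasma asked whether high-grain feeding altered these circulating miRNAs. None of the 6 members passed the test, as was so for all 538 names tested with edgeR (0% called; 10.2% had an unadjusted p under 0.05, and DESeq2 called 12). The difference, HG minus FD on the log2 scale, was -1.56 for bta-miR-122 (SE 1.08, edgeR adjusted p = 0.803), with lower CPM on HG in 3 of 4 cows. The difference was -2.52 without cow 1, and without cow 2 it was -0.84 and without cow 3 it was -0.71. Cow 1 went the other way, 5.01-fold higher on HG, and its FD library had the fewest reads of all. For bta-miR-192 the difference was -0.65 (SE 0.809, edgeR adjusted p = 0.950) and for bta-miR-215 -0.71 (SE 0.726, adjusted p = 0.938), each with 2 of 4 cows higher on HG. With 1 cow left out, the difference of bta-miR-215 ranged from -1.37 without cow 1 to -0.03 without cow 2, and that of bta-miR-192 was -1.45 without the FD library of cow 1 and 0.13 without cow 2.

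On FD the mean CPM of bta-miR-122 was 51987 ± 32811 and on HG it was 22841 ± 8646 (SD, n = 4 cows for each diet). Within cows the change ran from 6.16-fold lower on HG in cow 3 to 5.01-fold higher in cow 1. The means of bta-miR-192 were 9530 ± 6412 and 7907 ± 4243, and those of bta-miR-215 were 4751 ± 2380 and 4319 ± 2892 (SD, n = 4 each). bta-miR-194 had higher CPM on HG in 4 of 4 cows, at 847 ± 199 against 608 ± 143 (SD, n = 4), by 1.01 to 2.63-fold. Its fitted difference was only 0.08 (SE 0.50, edgeR adjusted p = 0.979), beside a median of 0.245 over all names, and this median was 0.670 with library size alone. The CPM ranges of the diets overlapped for each of the 6 members, where 5.20% of all names were higher on HG without overlap.

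For bta-miR-193b the difference was 0.10 (SE 0.911, edgeR adjusted p = 0.984), with 2 of 4 cows higher on HG. The low-abundance bta-miR-194b had an unadjusted edgeR p of 0.0479 and an adjusted p of 0.452. Its HG mean of 14.2 CPM was 3.43 times the mean limit of 4.14 CPM that 3 counts per library set on FD, and that HG mean rests on cow 1.

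**Figure D4:**
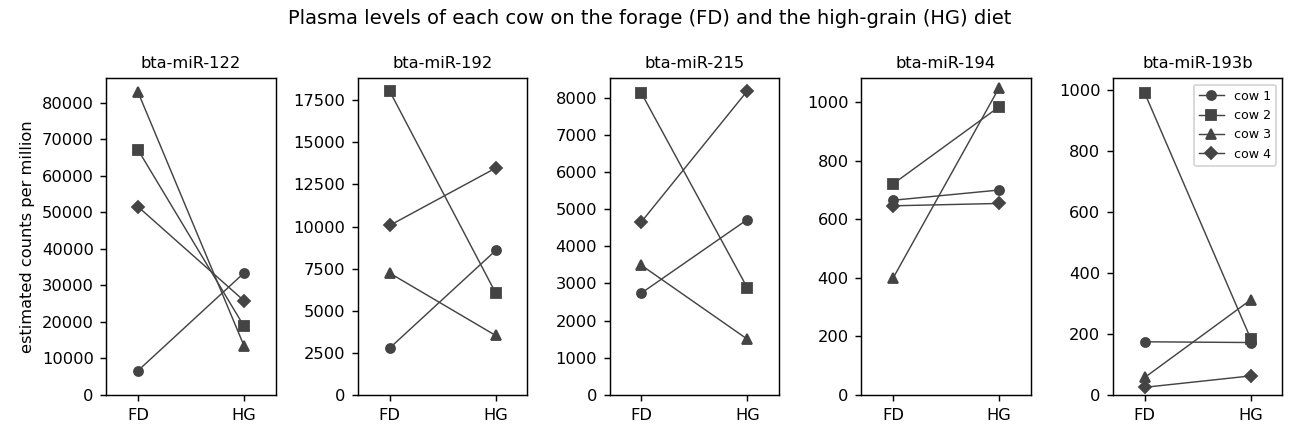
Plasma level of 5 miRNAs in CPM, with a line for each of the 4 cows from FD to HG and each axis starting at 0. bta-miR-122 falls in 3 of 4 cows and rises in cow 1, bta-miR-192 and bta-miR-215 cross, and bta-miR-194 is higher on HG in all 4, by 1.01 to 2.63-fold.

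The level of several members was low in the plasma libraries with the fewest reads. The 3 shallowest plasma libraries, FD cow 1 and HG cows 2 and 3, held the 3 lowest values of bta-miR-122, at 6662 to 18783 CPM against 25769 to 82794.5 in the other 5. The same libraries held the 3 lowest values of bta-miR-192, at 2787 to 6052 against 7232 to 18033 CPM, and of bta-miR-215, at 1499 to 2880 against 3487 to 8180 CPM. For bta-miR-194 and bta-miR-193b none of the 3 lowest values came from these libraries. CPM is already relative to the library total, and the part of depth in these differences was not tested.

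**Figure D5:**
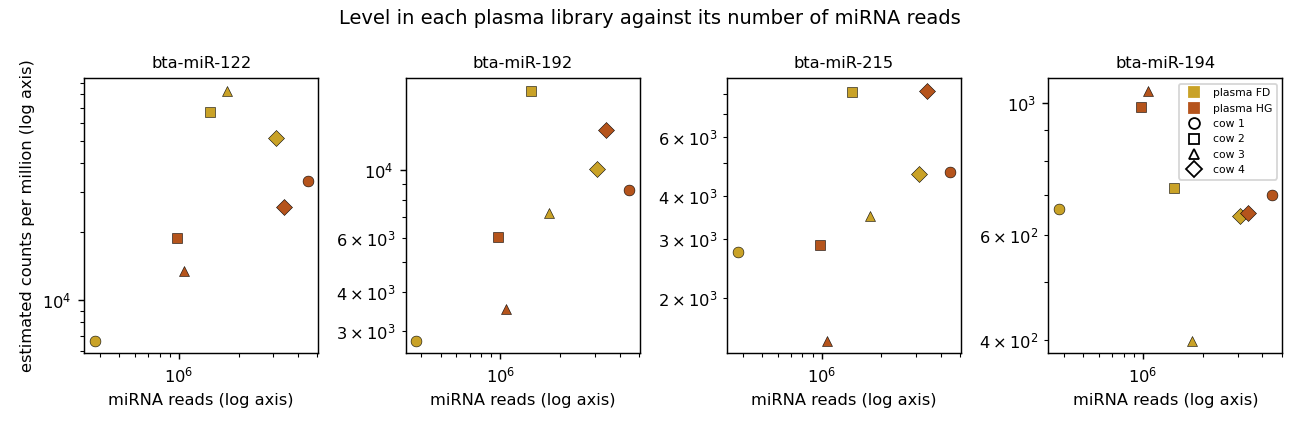
Level of 4 miRNAs in each of the 8 plasma libraries against the number of reads assigned to miRNAs, both on log axes, coloured by diet and with 1 symbol per cow. The 3 libraries with the fewest reads hold the 3 lowest levels of bta-miR-122, bta-miR-192 and bta-miR-215, but not of bta-miR-194.

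In leucocytes none of the 6 members passed the diet test, where 1.92% of 782 names did. The differences, HG minus FD on the log2 scale, ran from -0.37 for bta-miR-215 (SE 0.201, edgeR adjusted p = 0.436) to 0.32 for bta-miR-193b (SE 0.233, adjusted p = 0.574). bta-miR-192 was at 692 ± 81.4 CPM on FD and 712 ± 11.6 on HG (SD, n = 3 each). bta-miR-194 was lower on HG in 3 of 3 cows and its CPM did not overlap between the diets, at 499.8 to 510.3 CPM on FD and 419 to 496 on HG, as was so for 9.72% of all names. Its fitted difference was -0.16 (SE 0.125, edgeR adjusted p = 0.597). Without cow 4, bta-miR-193b was called higher on HG, by 0.66 (edgeR adjusted p = 0.00345), a fit in which 102 names were called against 15 with all cows.

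The difference of the diet effects between plasma and leucocytes was tested as an interaction in the fit of all 14 libraries. No member passed, and none of 800 names did in edgeR (0% called; 7.38% had an unadjusted p under 0.05, and DESeq2 called 30). The interaction was -1.49 for bta-miR-122 (edgeR adjusted p = 0.862) and 0.03 for bta-miR-194 (adjusted p = 1), although in cows 1, 3 and 4, which have both sample types, the CPM of bta-miR-194 was higher on HG in plasma and lower on HG in leucocytes.

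Together the members made up 6.72% ± 3.84 of the estimated counts of a library in FD plasma, with a range of 1.30 to 9.49%, and 3.61% ± 1.41 in HG plasma, with a range of 1.98 to 4.81% (SD over 4 cows each). In leucocytes they made up 0.128% ± 0.0137 on FD and 0.123% ± 0.00268 on HG (SD, n = 3 each). bta-miR-122 supplied 51.1 to 88.1% of the members' sum in plasma and 1.64 to 6.26% in leucocytes, where bta-miR-192 supplied 53.8 to 59.0%.

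Other names known from liver, pancreas and digestive or other epithelia were listed with the members, 25 in all, of which 21 could be tested between plasma and leucocytes. On each diet 16 were called higher in plasma and 1 lower, with a median log2 difference of 3.68 on FD and 3.97 on HG. Over all 800 names, 14.6% (FD) and 15.9% (HG) were called higher and 18.4% and 18.8% lower, with medians of -1.63 and -0.84. The relatives of bta-miR-193b from other loci were among them: bta-miR-193a-3p was higher by 7.42 on FD (SE 0.985, edgeR adjusted p = 0.000336) and by 5.12 on HG (SE 0.872, adjusted p = 0.0014). bta-miR-375, a miRNA of pancreatic islets and enteroendocrine cells, was higher by 4.21 on FD (SE 0.511, edgeR adjusted p = 0.000193) and 3.35 on HG (SE 0.494, adjusted p = 0.000489). bta-miR-101 was the name called lower, by -2.11 on FD (SE 0.325, edgeR adjusted p = 0.000733) and -2.40 on HG (SE 0.323, adjusted p = 0.000262). Between diets 0 of 20 tested names of this list were called in plasma and 0 of 20 in leucocytes, with median differences of -0.14 and -0.28.

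The 6 tested names of the epithelial list (miR-200 family, miR-141 and miR-205) were all called higher in plasma on both diets. All 6 are already counted in the list above. Names of other tissues were called higher on both diets as well: 3 of 3 nerve names, 2 of 2 names of platelets and endothelium and 3 of 5 muscle names. The nerve names bta-miR-124a and bta-miR-124b held nearly the same reads, and the 2 names of platelets and endothelium are bta-miR-126-5p and bta-miR-126-3p. Over all names, 14.6% were called higher on FD and 15.9% on HG. Of the 8 erythrocyte names 5 were called lower in plasma on FD and 6 on HG, while bta-miR-96 was called higher on FD by 4.43 (SE 1.42, edgeR adjusted p = 0.0341), and of the 7 leucocyte names 3 and 4. In the leucocyte libraries, fewer cells of a type and less of a miRNA per cell cannot be told apart. The source of the miRNAs in plasma, which was centrifuged to remove cells, was not tested.

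Over the 8 plasma libraries, the names whose log2 CPM ran most like each member were sought among 185 bovine names with at least 10 estimated counts in every plasma library, as a description over libraries that share cows and depth. For bta-miR-122 they were bta-miR-22-3p (r = 0.964), bta-miR-296-3p (0.928) and bta-miR-328 (0.924). For bta-miR-192 they were bta-miR-29c (0.920), bta-miR-296-3p (0.916) and bta-miR-215 (0.904), and for bta-miR-215 they were bta-miR-192 (0.904), bta-miR-29a (0.888) and bta-miR-6123 (0.806). Part of the reads of bta-miR-192 and bta-miR-215 are the same, and on the reads of each that the other does not share their r was 0.866. bta-miR-194 ran most like bta-miR-365-3p (0.908), bta-miR-339b and bta-miR-339a (0.825 each), which fell to 0.662 and 0.569 without the 2 libraries farthest from the median, as the r of bta-miR-215 with bta-miR-6123 fell to 0.601. The r of bta-miR-194 with its chromosome neighbour bta-miR-192 was -0.263, and the reads of bta-miR-194 were not tied to that locus alone. bta-miR-193b ran most like bta-miR-141 (0.867), bta-miR-429 (0.830) and bta-miR-17-5p (0.824).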

How the data were processed

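Small RNA was sequenced from plasma (8 libraries) and leucocytes (6 libraries). Per the study's methods and the labels, reads were demultiplexed with bcl2fastq 2.20, trimmed with Skewer and passed to sRNAbench, which used the UMD3.1 genome and miRBase 22 for bovine names and human homologues, with up to 2 mismatches. The authors deposited, per library, raw read counts (a read counts in full at each name), distinct sequences, and estimated counts (a read divided among names). The deposited RPM columns served only to recover read totals. The tables of the authors' normalized values were not used.

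Estimated counts were rounded and tested with edgeR 4.0.16 in R 4.3.3 (robust quasi-likelihood test, TMM, cow plus diet, names with at least 10 counts in total, Benjamini-Hochberg adjusted p under 0.05), fitted on all names. Plasma against leucocytes and the interaction came from 1 fit of 14 libraries. The script was tested on simulated data. The alternatives were DESeq2 1.42.0 (the study's test), other scalings, filters and counts, limma 3.58.1 voom, no block for cow, and each cow left out. The fit without the plasma FD library of cow 1 was chosen after seeing the data. Coordinates are those of the library files.

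The cow of each plasma library was taken from the study's own numbering of its read counts, where 504 of 504 plasma and 198 of 198 leucocyte values equal those of the libraries so paired. Deviations from the group means correlated between diets at 0.467 to 0.664 within cows and -0.606 to 0.304 between cows in leucocytes, but at -0.522 to 0.442 and -0.654 to 0.751 in plasma, so the pairing in plasma rests on that numbering. The named miRNAs are all members, their human entries and other arms, the 3 most alike names, and listed names of liver, gut and other tissues. The members, the lists and the tests were chosen with earlier results of these data known. bta-miR-193a, bta-miR-802 and bta-miR-203 had no entry under these names.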

Additional observations from a re-analysis of the deposited data

Results flagged for a closer look

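In FD plasma the bta-miR-193b level of cow 2, 991 CPM, stood apart from the other 3 cows, which had 25.0 to 175 CPM. The gap to the nearest cow was 0.845 of the whole range, above Dixon's 95% critical value for 4 samples. The library held 1110 reads of it from 9 distinct sequences, and the part of any single sequence was not tested.

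In HG plasma bta-miR-194b of cow 1, at 55.5 CPM from 353 reads and 4 distinct sequences, stood apart from the other cows at 0 to 0.878 CPM, with a gap of 0.984 of the range. Of 13 groups tested in this way 2 stood out, where chance alone gives 0.65.

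The CPM of bta-miR-194 was higher on HG in 4 of 4 cows in plasma and lower on HG in 3 of 3 cows in leucocytes. The difference between the diet effects, tested as an interaction in edgeR, was 0.0316 on the log2 scale with an adjusted p of 1, so the opposite directions in CPM are not a difference that passed the test.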

How the results depend on the processing

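Of 421 values of single members under the alternatives, 384 kept their direction and their side of the threshold. bta-miR-122 and bta-miR-215 kept their call in plasma against leucocytes under all 15 alternatives on both diets, with adjusted p of at most 0.0114 and 0.00599. For the results that follow, the cause of a change was not tested. The count of names called between diets was 12 with DESeq2 in place of 0 in plasma, and 30 in place of 0 for the interaction. In leucocytes, in place of 15, it was 32 with DESeq2, 9 with DESeq2 size factors, 24 with at least 10 counts in every library, 5 with identical names taken once and 0 to 102 with 1 cow left out. Plasma against leucocytes gave 163 (FD) and 173 (HG) with at least 10 counts in every library, where only 257 names were tested, and 86 to 261 (FD, in place of 264) and 122 to 308 (HG, in place of 277) with a cow or the plasma FD library of cow 1 left out. Without the block for cow (no pairing), the counts were 0 for diet in plasma and in leucocytes, and 347 (FD) and 312 (HG) between plasma and leucocytes, while bta-miR-193b was called higher in plasma on FD (edgeR adjusted p = 0.0146). With library size alone it was called higher on HG (adjusted p = 0.0355).

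Without that block the sign changed for bta-miR-193b between diets in plasma (-1.25) and for bta-miR-194b in plasma against leucocytes on HG (1.45). With library size alone it changed for bta-miR-194 in plasma against leucocytes (0.18 on the FD and 0.83 on the HG diet), for bta-miR-194b on HG (0.86), and for the interaction of bta-miR-193b (0.15) and bta-miR-215 (0.21). None of these values passed the threshold. With a cow or library left out, the ranges that crossed 0 between diets in plasma were -1.45 to 0.13 for bta-miR-192, -0.48 to 1.05 for bta-miR-193b and -0.087 to 0.31 for bta-miR-194. In leucocytes the range was -0.42 to 0.19 for bta-miR-122. For bta-miR-194b in plasma against leucocytes on HG it was -4.59 to 1.47. For the interaction the ranges were -1.10 to 0.51 for bta-miR-193b, -0.74 to 0.21 for bta-miR-215 and -0.26 to 0.27 for bta-miR-194.

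The members' share of a library on undivided reads was 3.84% in FD plasma, 2.19% in HG plasma, 0.0829% in FD leucocytes and 0.0822% in HG leucocytes. With miR-451 left out of the total it was 0.201% and 0.193% in leucocytes on FD and HG. In plasma the depth limits bta-miR-194b, where a count of 0 allows up to 10.3 CPM in the shallowest library.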
